A study of Homo sapiens with 6 samples.

Results

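The 72 genes described here had less RNA in each of the 3 libraries from CIRBP-knockdown cells than in each of the 3 control libraries. They were chosen by these same values: counts were scaled to CPM, which is counts per 1000000 counts of the library, a gene needed a mean of at least 5 CPM over the 6 libraries, and its highest knockdown value had to be no more than its lowest control value divided by 1.5. Of 58884 genes listed, 10686 had a mean of at least 5 CPM and 74 met both conditions, which is 0.692% of the 10686. CIRBP itself and CD200 are among the 74 and were left out by name, which leaves 72. IL6, SLC2A3, CHMP1B, SIK1 and SIK1B were also left out by name and did not meet the conditions. Since all 6 libraries entered the choice, the lowering of these genes is a description and carries no test. The opposite condition, with every knockdown library at least 1.5 times above every control library, was met by 28 genes.

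RNA was sequenced from immortalized human cardiomyocytes, named T0519 in the labels and AC16 in the study's text. The control cells were transfected with negative control siRNA (NC, 3 libraries) and the others with siRNA against CIRBP (SiCIRBP, 3 libraries). All were grown at 37 °C in 5% CO2 and 10% fetal bovine serum, with no other treatment named for these libraries. Nothing in the labels says that the 3 libraries of a group came from separate cultures, so the spread between them may be technical. Of 25 cardiac markers, 7 reached 1 TPM, a level corrected for transcript length and library size, in any library, and 6 had no count in any (MYH6, MYL2, MYL3, MYBPC3, RYR2 and PLN). The factors GATA4, GATA6 and HAND2 were present, and 10 of 13 fibroblast markers reached 1 TPM. Most contractile genes among the cardiac markers stayed under 1 TPM in all 6 libraries.

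CIRBP, the cold-inducible RNA-binding protein, binds transcripts in the nucleus and the cytoplasm and affects their processing, stability and translation. A group of 5 among the genes lowered here belongs to signalling by cyclic AMP (cAMP). This second messenger is made when many G-protein coupled receptors are stimulated. cAMP activates protein kinase A, which phosphorylates the factor CREB at DNA sites named cAMP response elements, and phosphodiesterases break cAMP down again. In heart muscle this pathway carries the response to adrenergic stimulation, and phosphodiesterases restrict it in time and place.

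Each library held between 25726259 and 29919566 estimated counts. CIRBP was at 88.2, 85.9 and 92.7 CPM in NC_1, NC_2 and NC_3, and at 54.5, 23.7 and 45.6 CPM in SiCIRBP_1, SiCIRBP_2 and SiCIRBP_3, so the target was lower in every knockdown library and lowest in SiCIRBP_2. The study set NC_1 and SiCIRBP_2 aside as discrepant and tested the other 4 libraries. SiCIRBP_2 also stood apart in 28 interferon-stimulated genes, none of which is a member, with a summed level of 6942 CPM against 448 in SiCIRBP_1, 1360 in SiCIRBP_3 and 799.7 to 819 in the NC libraries. The part of this in the values of the members was not tested.

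Among all 10686 genes, every SiCIRBP library was below every NC library for 22.1% and above every NC library for 14.3%. Over the 4 libraries the study tested, edgeR called 278 of 15421 genes lower by at least 2-fold at an adjusted p-value under 0.05, which is 1.8%, and 281 higher, which is 1.82%. At an unadjusted p-value under 0.05, 18.5% of the 15421 genes were lower and 18.2% higher, and DESeq2 called 215 genes lower and 169 higher, 0.809% and 0.636% of 26574. edgeR called 41 of the 72 members lower, a count read here only as a description because the same libraries chose the members. Over all 6 libraries edgeR called no gene in either direction, with 1764 genes lower and 1839 higher at an unadjusted p-value under 0.05, whereas DESeq2 called 160 lower and 162 higher. In bulk RNA, fewer cells of a kind and less RNA per cell cannot be told apart.

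**Figure D1:**
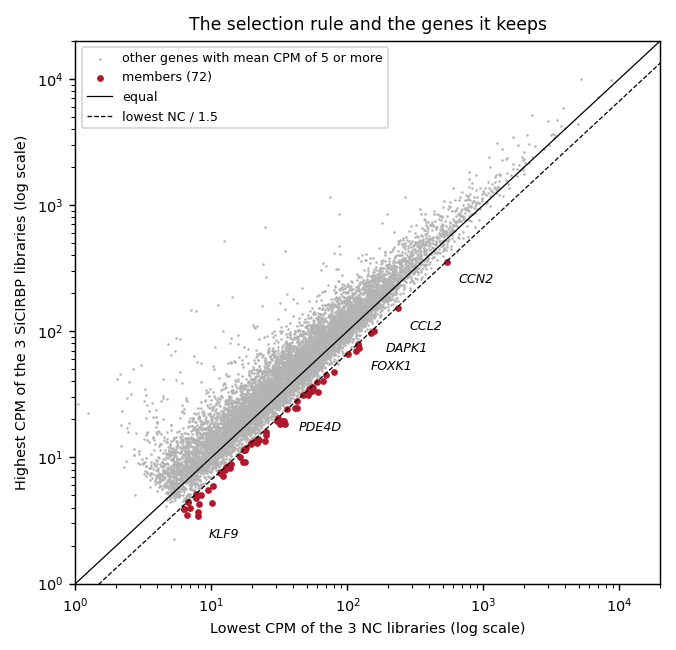
Each point is a gene with a mean of at least 5 CPM, placed by its lowest NC value (horizontal, CPM, log scale) and its highest SiCIRBP value (vertical, CPM, log scale), with the 72 members in red, the solid line at equal values and the dashed line at the lowest NC value divided by 1.5. The members lie in a band along the dashed line from under 10 CPM to CCN2 at 541, and the cloud of other genes continues directly above them. The grey points below the dashed line are CIRBP and CD200, which were left out by name.

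The size of the lowering was moderate. The ratio of the geometric means (NC over SiCIRBP) ran from 1.59 in NBPF10 to 4.16 in YPEL2, with a median of 2.12. The median log2 difference was -1.08 over the members and -0.06 over all 10686 genes. Against the NC mean it was -0.96 in SiCIRBP_1, -1.27 in SiCIRBP_2 and -0.98 in SiCIRBP_3. The members form no separate cluster at the threshold: 38 of the 72 had a ratio of lowest NC to highest SiCIRBP value under 1.6, and only KLF9, MTUS1 and YPEL2 had 2 or more. The last members inside were RNF169 and LRRC37A4P at 1.505, CNTNAP1 and LRP8 at 1.503 and NBPF10 at the limit of 1.5. The first genes outside were USP49 at 1.496, AC022400.9 at 1.491, N4BP2 and RAPH1 at 1.487 and PLAT at 1.486. PLAT, the tissue-type plasminogen activator, was at 634, 815 and 796 CPM in the NC libraries and at 426, 272 and 371 CPM in the SiCIRBP libraries, so its groups were nearly as far apart as those of the last members.

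**Figure D2:**
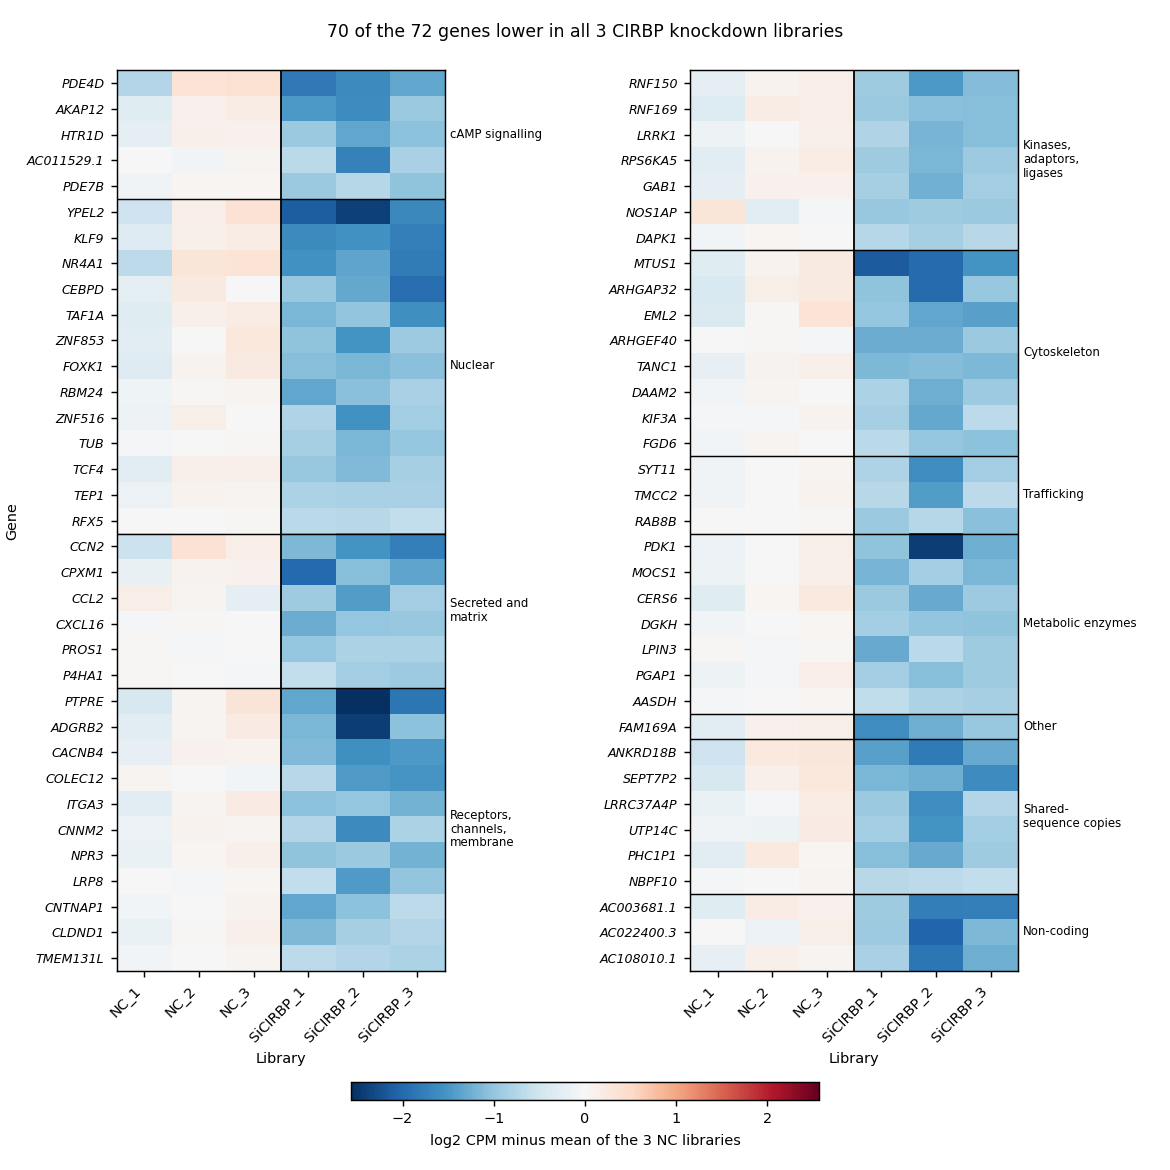
Each row is 1 of 70 of the 72 genes, grouped by role, each column a library, and the colour is log2 CPM minus the mean of the 3 NC libraries. All cells to the right of the vertical line are blue, NC_1 is bluer than NC_2 and NC_3 in most rows, and SiCIRBP_2 is the darkest column for PDK1, ADGRB2, PTPRE and the non-coding genes.

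Genes of cAMP signalling, 5 members by role, are described first, and this order is not one of size. The phosphodiesterase gene PDE4D (chr5:58969038-60522120, minus strand, GRCh38), whose enzyme is specific for cAMP, was at 36.2, 77.8 and 79.4 CPM in NC_1, NC_2 and NC_3 and at 17.03, 19.7 and 24.0 CPM in SiCIRBP_1, SiCIRBP_2 and SiCIRBP_3. NC_1 was lower than the other NC libraries but, as the rule required, stayed above the SiCIRBP range, and the geometric means differed 3.03-fold. PDE7B (chr6:135851696-136195574, plus strand), another cAMP-specific enzyme, was at 30.2, 33.3 and 33.4 CPM in NC and 16.7, 19.5 and 15.7 CPM in SiCIRBP, with all 3 libraries of a group close together and a ratio of 1.87. The gene listed as AC011529.1 (chr19:10416773-10469631, plus strand) carries the Ensembl identifier of PDE4A and is named PDE4A in the current gene table. It was at 18.6, 17.7 and 19.4 CPM in NC and 11.5, 5.61 and 10.4 CPM in SiCIRBP, lowest in SiCIRBP_2, with a ratio of 2.12.

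AKAP12 (chr6:151239999-151358557, plus strand) encodes an anchoring protein that holds protein kinase A near its substrates. It was at 119.8, 159.5 and 170.1 CPM in NC and 53.5, 48.4 and 77.0 CPM in SiCIRBP, a ratio of 2.54. HTR1D, a serotonin receptor that lowers cAMP through inhibitory G proteins, was at 22.2, 29.2 and 28.8 CPM in NC and 13.8, 10.5 and 12.8 CPM in SiCIRBP. NR4A1 (chr12:52022832-52059507, plus strand), an orphan nuclear receptor and an immediate target of CREB, was at 16.3, 32.0 and 33.1 CPM in NC and 8.82, 10.1 and 7.45 CPM in SiCIRBP. Like PDE4D, it was about 2 times lower in NC_1 than in NC_2 and NC_3 and lower still in all SiCIRBP libraries.

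The cAMP response element (CRE, TGACGTCA, the same on both strands) was sought in RefSeq promoters of GRCh38.p14, taken from 250 bases before to 50 bases after each start. Promoters were found for 55 of the 72 members, 109 promoters in all. The CRE was in 4 of these, 1 each of PDE4A, PDE7B, AASDH and DAAM2, which is 3.67% of the promoters of members, 1.85% of all 35116 promoters and 2.98% of the 12503 promoters of genes with a mean of at least 5 CPM. The stretches below show the element in its place, in capitals, with 90 bases before it and 5 after, read 5′ to 3′ on the strand of the gene. In PDE4A the element begins 3 bases before the start (chr19:10416680-10416782, plus strand), in AASDH 28 bases before (chr4:56387507-56387609, minus strand), in DAAM2 71 bases before (chr6:39792215-39792317, plus strand) and in PDE7B 155 bases before (chr6:135851456-135851558, plus strand).
PDE4A: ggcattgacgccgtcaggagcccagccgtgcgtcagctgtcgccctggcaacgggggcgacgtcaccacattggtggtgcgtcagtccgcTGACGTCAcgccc
AASDH: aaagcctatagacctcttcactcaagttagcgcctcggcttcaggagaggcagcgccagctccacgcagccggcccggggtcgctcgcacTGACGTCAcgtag
DAAM2: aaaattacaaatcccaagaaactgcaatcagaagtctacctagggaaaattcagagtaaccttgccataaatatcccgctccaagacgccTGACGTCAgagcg
PDE7B: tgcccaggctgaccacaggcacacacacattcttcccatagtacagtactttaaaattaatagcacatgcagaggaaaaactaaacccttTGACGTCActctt

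PDE4A has 4 other promoters in the table and DAAM2 has 1 more, all without the element, and the counts do not tell from which start a transcript began. None of the 8 promoters listed for PDE4D held the 8 letters. For the other motifs the share is given in members' promoters, then in all promoters and then in those of genes with a mean of at least 5 CPM. AP-1 (TGANTCA) was in 6.42%, against 7.71% and 4.67%, and C/EBP (TTGCNNAA) in 8.26%, against 10.5% and 6.99%. The E-box (CACGTG) was in 8.26%, against 7.26% and 9.70%. For these 3 motifs the members lay between the backgrounds, so that the direction depended on which was used. FOXO (TGTTTAC) was in 3.67%, against 3.42% and 2.47%, the hypoxia element (TACGTG) in 3.67%, against 3.24% and 3.20%, and the NR4A element (AAAGGTCA) in 1.83%, against 1.22% and 0.72%, the last from 2 promoters of members. Each was sought on both strands, and a match is a run of letters, not evidence of a bound factor.

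A list of 35 cAMP and CREB responsive genes, written with earlier results of these data known, holds 5 of the members, namely PDE4A, PDE4D, PDE7B, AKAP12 and NR4A1. Of its 32 genes tested by edgeR over the 4 libraries, 10 were called lower and 0 higher, beside 1.8% and 1.82% of all genes. At an unadjusted p-value under 0.05, 20 were lower and 1 higher, beside 18.5% and 18.2% of all genes, and DESeq2 called 9 lower and 0 higher, beside 0.809% and 0.636%. Among the 27 tested genes of the list that are not members, 6 were called lower: NR4A2, NR4A3, SIK1, BDNF, NR1D2 and RGS2. The other NR4A receptors met neither the level nor the ratio of the rule. NR4A2 was at 1.32, 5.36 and 6.12 CPM in NC and 0.749, 1.63 and 0.773 CPM in SiCIRBP, where SiCIRBP_2 lay above NC_1. NR4A3 had a mean of 2.71 CPM and a ratio of lowest NC to highest SiCIRBP value of 1.24.

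Close relatives of members, picked after the members' values were known, did not all show the same order. PDE4B had the order of the members but did not reach the ratio of 1.5, with 30.8, 36.1 and 35.2 CPM in NC and 16.8, 17.1 and 25.2 CPM in SiCIRBP. PDE3A and PDE10A had that order too, with ratios of lowest NC to highest SiCIRBP value of 1.17 and 1.16, and the groups of PDE8A overlapped. PDE7A had the opposite order, at 22.4, 23.6 and 21.5 CPM in NC and 24.7, 26.9 and 27.6 CPM in SiCIRBP. It did not pass the test, with a log2 fold change of 0.24 over the 4 libraries (standard error 0.12, adjusted p = 0.206 in edgeR). Over 18 groups of relatives, 30 relatives outside the module had a mean of at least 5 CPM, and 10 of these were below and 4 above all NC libraries in all 3 SiCIRBP libraries, beside 22.1% and 14.3% of all genes. These relatives are outside the module because they did not meet its rule, so the counts say nothing about how families differ.

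**Figure D3:**
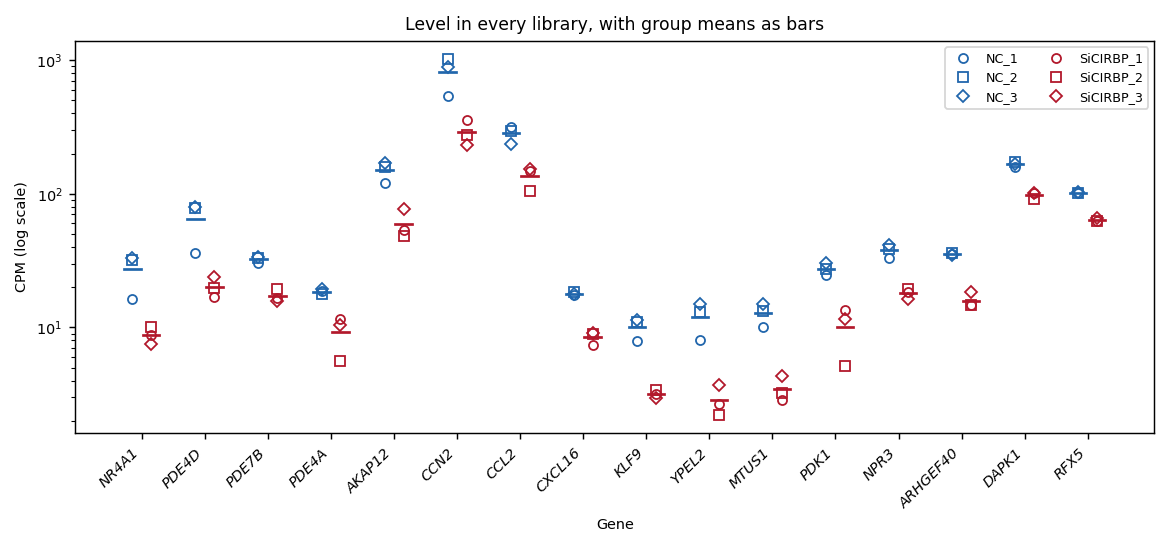
CPM (log scale) of 16 members in each library, with NC in blue and SiCIRBP in red, a different marker for each library number and a short bar at each group mean. As the rule required, no SiCIRBP point reaches an NC point of the same gene. In NR4A1, PDE4D and CCN2 the NC_1 circle lies well below the other NC points, and in CXCL16, ARHGEF40 and RFX5 the 3 NC points coincide.

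Nuclear factors and other nuclear proteins made up 13 members, NR4A1 among them, which is the largest group by role. In the GO terms deposited with the table, nucleus was listed for 37.1% of the members with terms, against 43.0% of expressed genes with terms. DNA binding was listed for 14.3% against 13.0%. Nuclear location was thus no more frequent among the members than among expressed genes, and DNA binding was near its share. KLF9 (chr9:70384597-70414624, minus strand), a zinc finger repressor induced by glucocorticoids, had the widest gap of all members, at 7.98, 10.96 and 11.4 CPM in NC and 3.20, 3.41 and 2.95 CPM in SiCIRBP. YPEL2 (chr17:59331689-59401729, plus strand), a small protein with a zinc-binding domain, had the largest ratio of means, at 8.01, 13.0 and 14.9 CPM in NC and 2.66, 2.20 and 3.69 CPM in SiCIRBP. Both are among the less abundant members, and their values rest on between 58 and 446 estimated counts a library. FOXK1, a forkhead factor that represses autophagy genes and supports glycolysis, was at 122.5, 164 and 181 CPM in NC and 72.3, 68.1 and 73.6 CPM in SiCIRBP. Its relative FOXK2 was at 131, 157 and 167 CPM in NC and 135.5, 98.8 and 119 CPM in SiCIRBP, so that its groups overlapped.

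CEBPD, a bZIP factor of the acute-phase response, was at 21.7, 29.5 and 25.2 CPM in NC and 13.0, 10.1 and 6.50 CPM in SiCIRBP. TCF4, an E protein that dimerises with tissue-specific bHLH factors, was at 30.6, 40.4 and 40.6 CPM in NC and 18.8, 16.9 and 20.4 CPM in SiCIRBP. The E protein TCF12 was also lower in every SiCIRBP library, at 102, 122 and 120 CPM in NC and 88.1, 70.0 and 96.4 CPM in SiCIRBP. Its log2 fold change over the 4 libraries was -0.365 (standard error 0.088, adjusted p = 0.0342 in edgeR). The E protein TCF3 went the other way, from 159, 157 and 154 CPM in NC to 237, 165 and 208 CPM in SiCIRBP, with a log2 fold change of 0.55 over the 4 libraries (standard error 0.09, adjusted p = 0.0134 in edgeR), which is short of 2-fold. RFX5, the DNA-binding subunit of the complex that drives MHC class II genes, had the smallest lowering of the group, at 101, 101 and 104 CPM in NC and 62.8, 62.5 and 65.6 CPM in SiCIRBP. With a ratio of 1.599 it was among the most even members, since neither group spread beyond 1.1-fold.

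The remaining nuclear members were TAF1A, a subunit of the RNA polymerase I selectivity factor, RBM24, an RNA-binding splicing regulator known from heart and skeletal muscle, TEP1 of the telomerase and vault particles, TUB, and the zinc finger genes ZNF516 and ZNF853. Their ratios ran from 1.78 in TEP1 to 2.38 in TAF1A. A list of 35 Krüppel-like, forkhead, TFE and clock-output factors holds KLF9, FOXK1 and TCF4. Like the cAMP list, this list and those below were written with earlier results of these data known. Where a list holds members, its counts include them, and the same libraries chose them, so the counts are a description. Of its 30 tested genes 8 were called lower, 5 of them outside the module, and 0 higher over the 4 libraries, beside 1.8% and 1.82% of all genes. At an unadjusted p-value under 0.05 the counts were 17 and 1, beside 18.5% and 18.2% of all genes. DESeq2 called 7 and 0, beside 0.809% and 0.636%. A list of insulin and FOXO responsive genes holds KLF9 and YPEL2, and there 10 of 35 were called lower, 8 of them outside the module, and 1 higher, TRIB1, beside 1.8% and 1.82% of all genes. In that list 16 genes were lower and 7 higher at an unadjusted p-value under 0.05, the latter near the share of all genes, and DESeq2 called 9 and 1. Lists of Notch genes and of small MAF and stress response factors hold no member. Of their tested genes 3 of 25 and 4 of 20 were called lower and 0 and 1 higher, beside 1.8% and 1.82% of all genes. DESeq2 called 3 and 4 lower and 0 and 1 higher, beside 0.809% and 0.636%. At an unadjusted p-value under 0.05, 10 and 14 were lower and 1 and 2 higher, beside 18.5% and 18.2%.

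Secreted and matrix genes held the most abundant members. CCN2 (chr6:131948176-131951373, minus strand), connective tissue growth factor, was at 541, 1027 and 896 CPM in NC and 355, 275 and 234 CPM in SiCIRBP, 2.80-fold lower, with NC_2 at 1.90 times NC_1. Its relative CCN1 was at 463, 773 and 679 CPM in NC and 423, 370.1 and 289 CPM in SiCIRBP, lower in every knockdown library but with NC_1 near SiCIRBP_1. CCL2 (chr17:34255218-34257203, plus strand), the chemokine that draws monocytes, was at 316, 297 and 237 CPM in NC and 149, 104 and 152 CPM in SiCIRBP. In contrast to CCN2, NC_1 was its highest library.

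CXCL16, a chemokine made as a membrane protein, was at 17.6, 18.4 and 17.7 CPM in NC and 7.42, 8.98 and 9.13 CPM in SiCIRBP, a ratio of 2.11 between tight groups. P4HA1, a catalytic subunit of the prolyl hydroxylase that stabilises collagen, was at 126, 123 and 119.9 CPM in NC and 78.9, 66.1 and 64.3 CPM in SiCIRBP. Its paralogue P4HA2 was lower in every SiCIRBP library as well, with a log2 fold change of -0.50 over the 4 libraries (standard error 0.09, adjusted p = 0.016 in edgeR). PROS1, the anticoagulant protein S, and CPXM1, a secreted carboxypeptidase-like protein, had ratios of 1.82 and 2.79.

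A list of 44 genes of C/EBP factors, IL-6 family ligands and IL-1 or IL-17 signalling holds CEBPD and CXCL16. It and the next list were also written with earlier results of these data known. Of its 42 tested genes 12 were called lower, 10 of them outside the module, and 0 higher, beside 1.8% and 1.82% of all genes. At an unadjusted p-value under 0.05, 26 were lower and 3 higher, beside 18.5% and 18.2%, and DESeq2 called 11 and 0, beside 0.809% and 0.636%. A list of 37 integrin, focal adhesion and matricellular genes, all tested, holds CCN2 and ITGA3. Of the 37, 7 were called lower, 5 of them outside the module, and 2 higher, CCN3 and ITGB8, beside the same shares of all genes. At an unadjusted p-value under 0.05, 17 were lower and 5 higher, the latter under the 18.2% of all genes, and DESeq2 called 8 and 1. CCN3 was at 1.43, 1.13 and 1.54 CPM in NC and 4.67, 2.77 and 3.83 CPM in SiCIRBP, the opposite of CCN2.

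Receptors, channels and other membrane proteins made up 11 members. NPR3 (chr5:32689070-32791724, plus strand), the receptor that clears natriuretic peptides, was at 33.2, 38.8 and 41.2 CPM in NC and 18.4, 19.4 and 16.2 CPM in SiCIRBP. ITGA3, the alpha chain of a laminin-binding integrin, was at 51.2, 65.6 and 71.8 CPM in NC and 30.1, 31.1 and 26.8 CPM in SiCIRBP, while its partner chain ITGB1 was at 1271, 1293 and 1306 CPM in NC and 1389, 972 and 1332 CPM in SiCIRBP. PTPRE, a receptor-type tyrosine phosphatase, was at 6.62, 9.17 and 11.1 CPM in NC and 3.47, 1.48 and 2.42 CPM in SiCIRBP, the second largest ratio of means (3.78) after YPEL2 and, with 39 estimated counts in SiCIRBP_2, among the least deeply measured. CNNM2, a magnesium transport protein, was the most abundant of the group, at 148, 174 and 171 CPM in NC and 96.9, 52.8 and 93.3 CPM in SiCIRBP.

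The others were CACNB4, a calcium channel beta subunit, at a ratio of 2.63, the adhesion receptor ADGRB2 at 2.93, the scavenger receptor COLEC12 at 2.35, the reelin receptor LRP8 at 2.05, the contactin-associated protein CNTNAP1 at 2.03, the claudin-domain protein CLDND1 at 1.89 and TMEM131L at 1.68. The GO terms deposited with the table place 26 of the 70 members that have terms at the plasma membrane, 37.1% against 18.4% of expressed genes with terms. Signal transduction was listed for 13 members, 18.6% against 6.25%, and G-protein coupled receptor signalling for 7, 10.0% against 1.74%. These shares are descriptive, and terms listed for a few members were read only after the module was known.

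Kinases, adaptors and ubiquitin ligases made up 7 members. DAPK1 (chr9:87497228-87708633, plus strand), a calmodulin-regulated kinase with roles in cell death and autophagy, was at 158, 173 and 167 CPM in NC and 100.5, 91.3 and 101 CPM in SiCIRBP, a ratio of 1.70. RPS6KA5, the kinase MSK1, which phosphorylates CREB and histone H3, was at 11.7, 15.2 and 16.4 CPM in NC and 7.62, 6.33 and 7.46 CPM in SiCIRBP. Its paralogue RPS6KA4 was higher in every SiCIRBP library, from 112, 98.2 and 97.2 CPM in NC to 142, 169 and 173 CPM, with a log2 fold change of 0.72 over the 4 libraries (standard error 0.11, adjusted p = 0.0122 in edgeR). The adaptor GAB1 had a ratio of 1.99, the kinase LRRK1 of 2.02, the ligases RNF150 and RNF169 of 2.25 and 2.05, and NOS1AP, which binds neuronal nitric oxide synthase, of 1.94. NOS1AP was the member whose NC_1 value stood highest above the other NC libraries, at 19.3 CPM against 12.9 and 15.4.

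Cytoskeletal genes and their regulators made up 8 members. MTUS1, a microtubule-associated protein and candidate tumour suppressor, was at 10.1, 13.3 and 14.9 CPM in NC and 2.86, 3.22 and 4.35 CPM in SiCIRBP, 3.68-fold lower. ARHGEF40 (chr14:21070270-21090240, plus strand), a guanine nucleotide exchange factor, was at 35.7, 35.98 and 34.8 CPM in NC and 14.7, 14.6 and 18.3 CPM in SiCIRBP, and ARHGAP32, a GTPase-activating protein, at 60.2, 87.5 and 91.7 CPM in NC and 38.6, 19.97 and 39.9 CPM in SiCIRBP. TANC1, a scaffold of synapses, was at 61.0, 75.7 and 77.0 CPM in NC and 31.8, 32.7 and 32.1 CPM in SiCIRBP, the narrowest SiCIRBP range but 1 of any member.

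The formin DAAM2 was 1.99-fold lower, the exchange factor FGD6 1.88-fold, the kinesin subunit KIF3A 1.93-fold and the microtubule-associated EML2 2.36-fold. Of the partners of KIF3A, KIF3B had overlapping groups, at 124, 124 and 125 CPM in NC and 134.5, 104 and 107 CPM in SiCIRBP. The partners KIF3C and KIFAP3 were below all NC libraries in all 3 SiCIRBP libraries by narrow gaps, with a ratio of lowest NC to highest SiCIRBP value of 1.06 and 1.07, and neither passed the test over the 4 libraries (adjusted p = 0.0834 and 0.151 in edgeR).

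Metabolic enzymes made up 8 members. PDK1 (chr2:172555373-172608669, plus strand), a kinase that inhibits pyruvate dehydrogenase, was at 24.6, 27.6 and 30.5 CPM in NC and 13.4, 5.12 and 11.6 CPM in SiCIRBP. SiCIRBP_2 was lower than the other knockdown libraries by 1.28 on the log2 scale, and the difference of mean log2 CPM was -1.22 over the 4 libraries the study tested and -1.57 over all 6. The paralogues PDK2 and PDK3 had overlapping groups, and PDK4 had no count in any library. A list of 39 genes of glucose uptake, glycolysis and glycogen, also written with earlier results of these data known, holds PDK1 alone. Of its 36 tested genes 6 were called lower, 5 of them outside the module, and 0 higher, beside 1.8% and 1.82% of all genes. DESeq2 called 5 and 0, beside 0.809% and 0.636%. At an unadjusted p-value under 0.05, 15 were lower, beside 18.5% of all genes, and 6 higher, near the 18.2% of all genes.

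Other enzymes were the lipin LPIN3 at a ratio of 1.96, the ceramide synthase CERS6 at 2.08, the diacylglycerol kinase DGKH at 1.97, the GPI inositol deacylase PGAP1 at 1.95, MOCS1 of molybdenum cofactor synthesis at 2.11 and AASDH at 1.71. The lipid-handling genes among them, LPIN3, CERS6, DGKH and PGAP1, ranged from 14.4 CPM to 69.05 CPM in mean NC level. The trafficking genes SYT11, TMCC2 and RAB8B had ratios of 2.13, 1.92 and 1.89, and FAM169A had 2.42.

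Of the 72 members 65 are protein-coding in GENCODE 29, 2 are antisense genes, 2 processed transcripts and 3 pseudogenes. Several share sequence with other genes, so that reads may have been divided between them. Of all 31-base words in the transcripts of AC022400.3, 97.8% occur in other genes, of NBPF10 90.2% and of PHC1P1 94.2%, the latter all in PHC1. UTP14C shares 74.6%, mostly with ALG11, AC108010.1 74.6% and LRRC37A4P 68.1%. In all, 12 members shared at least 25% of their words with another gene and 48 shared under 10%. SEPT7P2 and ANKRD18B, with 30.6% and 43.8% shared, were 2.55-fold and 2.82-fold lower, and these values are uncertain for the same reason.

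Members also lie across from each other or from other expressed genes. MOCS1 and DAAM2 are on opposite strands and share 735 exon bases, so the 2 are not independent if counting ignored strand, which the sources used here do not state. AC003681.1 lies opposite MTMR3 over 6469 exon bases, CERS6 opposite CERS6-AS1 over 2999 and FAM169A opposite NSA2 over 2540. Each of these antisense or overlapped members is uncertain without a strand-specific count.

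The libraries that the study set aside occupied particular places. NC_1 was the lowest NC library for 58 of the 72 members, 80.6% against 42.0% of all genes with a mean of at least 5 CPM. Since the lowest NC value had to clear the threshold, NC_1 set the ratio of these genes, and the members are those that stayed apart in spite of it. Without NC_1 the rule would select 306 genes, and over the 4 libraries of the study 445. On the log2 scale NC_1 lay at least 25% of the way from NC_2 and NC_3 to the SiCIRBP mean in 28 members and beyond 50% in NR4A1 and PDE4D.

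SiCIRBP_2 was the lowest knockdown library for 39 members, 54.2% against 43.7% of all genes, and the highest for 13, 18.1% against 40.4%. The rule limited the highest SiCIRBP value, which works against genes with a high SiCIRBP_2, so these shares are not independent of the choice. In 19 members SiCIRBP_2 was lower than the mean of SiCIRBP_1 and SiCIRBP_3 by at least 0.5 on the log2 scale, with PDK1 and ADGRB2 among those at the far end. CPXM1 was the only member for which it was higher by as much. The order of CIRBP itself, SiCIRBP_1 above SiCIRBP_3 above SiCIRBP_2, was found in 20 members, 27.8% beside 26.3% of all genes. With SiCIRBP_2 left out the rule would select 131 genes.

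**Figure D4:**
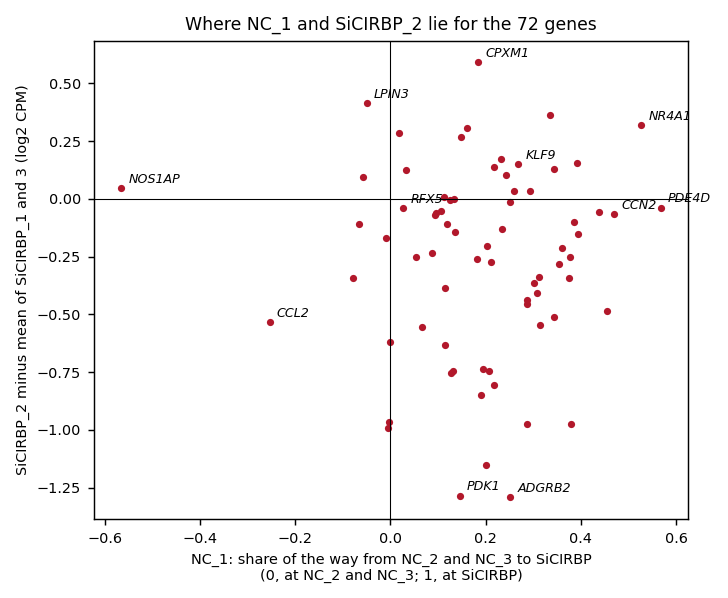
Each point is a member, placed by how far NC_1 lies from the mean of NC_2 and NC_3 towards the SiCIRBP mean (horizontal, share of the log2 difference) and by SiCIRBP_2 minus the mean of SiCIRBP_1 and SiCIRBP_3 (vertical, log2 CPM). Most points lie to the right of 0 and below 0, with NR4A1 and PDE4D farthest right, NOS1AP and CCL2 farthest left, and PDK1 and ADGRB2 lowest.

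A property that the rule did not use was gene length. The length listed with the deposited table had a median of 5096 bases over the members and 3031 over all 10686 genes, and 38 members, 52.8%, had at least 5000 bases against 23.3%. The 2286 other genes with every SiCIRBP library below every NC library were also long, with a median of 4409 bases and 41.2% of at least 5000 bases. Among all genes, length went with the difference between the groups: with the genes ordered by length and divided into 10 bins of equal size, the median log2 difference was 0.19 in the bin of the shortest genes and -0.31 in that of the longest. The genes raised by the mirrored rule had a median length of 2309 bases. The shift was steepest in SiCIRBP_2, where the bin medians ran from 0.30 to -0.36 relative to the mean of the 6 libraries, and it was also present in NC_2 and NC_3 in the other direction. That mean includes SiCIRBP_2, so part of the opposite slope in NC_2 and NC_3 follows from the calculation. When each library was centred within the length bins, an alternative chosen after seeing the data, 36 of the 72 members still met the rule, 38 genes in all, and the median log2 difference of the 72 was -0.94. What part length has in the lowering of single members was not tested.

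The choice of unit mattered for single genes. The deposited TPM values divide by a transcript length assigned in each library, and in TPM, too, the groups of all 72 members stayed apart, with the SiCIRBP libraries lower. The ratio of the lowest NC to the highest SiCIRBP value stayed at 1.5 or more for 53 of them. Among the 19 that did not, RAB8B had 1.04, DGKH 1.05 and NBPF10 1.06, so their groups nearly touched, while PDE4D at 1.46 and NR4A1 at 1.43 stayed near the threshold. Per length the members were modest in level, with a median NC value of 8.94 TPM against 23.6 TPM over all genes with a mean of at least 5 CPM.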

How the data were processed

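RNA-seq libraries of NC (n = 3) and SiCIRBP (n = 3) cells were compared. For each gene the authors deposited an expected count (estimated count, not normalized) and a TPM value per library. The submitters' processing notes name fastp, HISAT, RSEM and hg38, without versions, and strandedness is not given in the sources used here. A file of the authors' own fold changes and p-values was not used.

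Members were found from CPM over column totals. The members and the gene lists were chosen with earlier results of these data known. Rounded expected counts went into edgeR 4.0.16, run in R 4.3.3 (TMM, filterByExpr, quasi-likelihood test), for NC_2, NC_3, SiCIRBP_1 and SiCIRBP_3, as in the study. A call needed a 2-fold change and an adjusted p-value (Benjamini-Hochberg) under 0.05. DESeq2 1.42.0, all 6 libraries, other scalings, filters and thresholds, and leaving out each library were alternatives. Standard errors were derived from the F statistic. The procedures were tested on simulated data. Members in a fixed list, the 20 with the largest ratio of lowest NC to highest SiCIRBP value, the 5 most abundant and the 5 on each side of the threshold were to be named by rule. The others and the relatives were named after their values were seen, and 2 members are counted but not reported here by name. Locations and 31-base words came from GENCODE 29 and promoters from RefSeq. A level of 5 CPM is 129 to 150 counts in these libraries, so counting error is largest for the least abundant members, and p-values cover only the spread between these libraries.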

Additional observations from a re-analysis of the deposited data

How the results depend on the processing

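The rule that chose the 72 genes fixed the sign of their difference in these libraries. It also set a least size for the difference in CPM, which holds as well when a library is left out. The medians that follow therefore describe how the size moved with the settings and are no test of the lowering. The median log2 difference ran from -1.193 in TPM to -0.941 after centring by gene length, and with a single library left out from -1.153 to -1.002. How many genes the rule selects depended more on the settings. It selected 116 at a mean of at least 1 CPM, 266 at a ratio of 1.3, 3 at a ratio of 2, 445 over the 4 libraries the study tested, 38 after centring by length, and between 72 and 306 with a single library left out, the most without NC_1, followed by 218 without SiCIRBP_1, 170 without SiCIRBP_3 and 131 without SiCIRBP_2. TMM scaling gave 49, TPM 106 and a minimum of 10 CPM 55.

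Over the 4 libraries, DESeq2 called 215 genes lower and 169 higher, and without a filter on low counts edgeR called 405 lower and 468 higher, against 278 and 281. Over all 6 libraries edgeR called 0 of 15217 genes lower and 0 higher and 0 members, with 1764 and 1839 genes at an unadjusted p-value under 0.05. DESeq2 called 160 of 27993 genes lower and 162 higher, and 42 members lower. The rule chose the members on the same contrast, so all counts of members called are a description. With the replicate block in all 6 libraries, edgeR called 0 genes lower, 1 higher and 0 members. Deviations of same-numbered libraries from the means of their groups correlated at -0.118, 0.00607 and -0.0264 for numbers 1, 2 and 3 (over 15217 genes), so no shared deviation was seen. Whether same-numbered libraries were prepared together cannot be told from these values. With 1 of the 4 libraries left out, calls ranged from 37 to 558 lower and from 24 to 618 higher, and members called from 12 to 40. The lowest counts were without NC_3 (37, 24 and 12) and NC_2 (74, 48 and 20) and the highest without SiCIRBP_1 (549 lower, 618 higher) and SiCIRBP_3 (558 and 376), and with a lone SiCIRBP library that library was assumed to vary like the NC libraries. The cause was not tested.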
